A study of Mus musculus with 10 samples.

Results

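MLTC-1, a line grown from a mouse Leydig cell tumour and here given DMSO, was compared with primary Leydig cells taken from the testes of mice aged 2 months. The comparison used 5 of the 10 RNA sequencing libraries of the study, 3 of the line and 2 of primary cells, chosen by their labels. Of 25239 genes in the count table, 16092 passed the count filter and were tested. The question was which functions of a Leydig cell the line keeps, which it lost and which it has gained.

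Leydig cells lie between the seminiferous tubules and make testosterone. Luteinising hormone binds its receptor Lhcgr and raises cyclic AMP, Star then carries cholesterol into the mitochondrion, and Cyp11a1, an Hsd3b enzyme, Cyp17a1 and Hsd17b3 convert it step by step to testosterone. The nuclear receptor Nr5a1 and the GATA factors maintain this programme, and adult Leydig cells seldom divide. A tumour line grows without limit on plastic, so it is a common but partial model of the cell.

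The line was given the solvent DMSO, at a dose and for a time that the labels do not state, and the primary cells have the treatment label None. Total RNA was taken from both with one extraction kit and one library kit, per the labels' protocols. The labels give neither the isolation and culture of the primary cells nor the origin of the replicates. A p-value here therefore reflects variation among the sequenced samples, which could be technical. MLTC-1 is 1 tumour line. Cell type, source and solvent differ between the groups, culture and sex chromosome content may differ too, and these cannot be told apart. The study's other 5 libraries are MLTC-1 with hymeglusin (n = 3), which blocks an HMG-CoA synthase, and primary Leydig cells at 24 months (n = 2).

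Total counts were 24370094, 34787330 and 25559451 in the MLTC-1 libraries and 23668785 and 24234367 in the primary libraries. Levels are given as CPM, the count of a gene per 1e+06 counts of its library after the scaling given under processing. In a library, 0 reads allow a level of up to 3 counts, which is 0.0863 to 0.127 CPM and covers counting error only. The MLTC-1 libraries lay closer to each other than the primary pair, with biological coefficients of variation (spread on top of counting noise) of 0.0506 and 0.162. Of the 9 defining Leydig markers, Star, Cyp11a1, Cyp17a1, Hsd3b1, Insl3, Lhcgr and Nr5a1 were present in all 5 libraries. Hsd3b6 and Hsd17b3 were far lower in the line, as given below. The 9 markers summed to 9493, 9123 and 9273 CPM in MLTC-1 and 22697 and 20978 CPM in primary cells. In bulk RNA, fewer cells of a type and less RNA per cell cannot be told apart.

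In all, 5534 genes were higher in MLTC-1 (34.4% of those tested) and 7797 lower (48.5%), at an adjusted p under 0.05. At least 2-fold, 2747 genes were higher (17.1%) and 5737 lower (35.7%). The median log2 fold change, MLTC-1 over primary, was -0.27 over all tested genes, and 82.8% of genes were called in one direction or the other. Every MLTC-1 library was above both primary libraries for 37.7% of genes and below both for 51.7%. A single call therefore says little, and lists of genes are read below against these shares. The fold change had its 95% interval within 2-fold either way for 5673 genes (35.3%), called here held, of which 3644 were still called different and 2029 were not. Switched off, meaning under 0.5 CPM in each MLTC-1 library and at least 5 CPM in each primary library, were 1368 genes, and the reverse, switched on, held for 91. In the other 5 libraries, which share none with this comparison, 4183 of the 5534 higher genes were again called higher and 233 lower, and 5743 of the 7797 lower genes were again called lower and 373 higher.

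**Figure D1:**
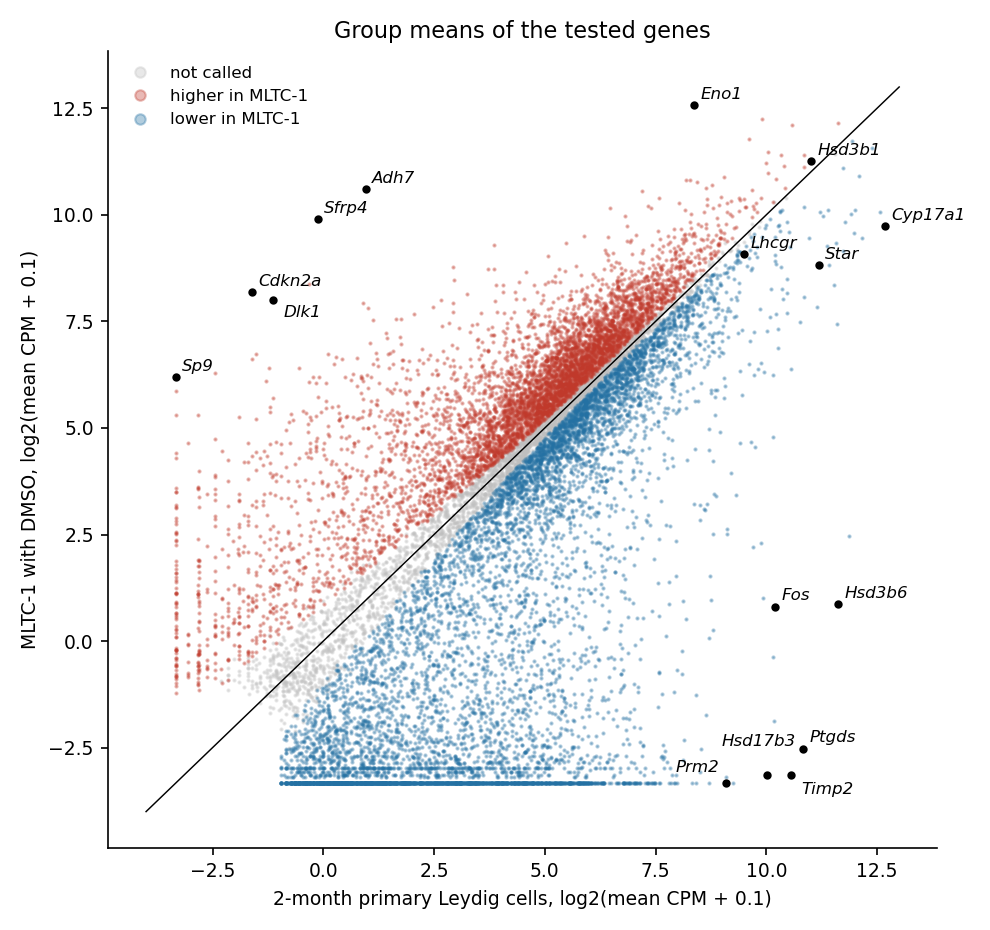
Mean level of each tested gene in 2-month primary Leydig cells (x axis) and in MLTC-1 with DMSO (y axis), both as log2 of mean CPM plus 0.1; the line marks equal levels and named genes are in black. Genes called lower reach the floor of the y axis in large numbers, with Hsd17b3, Timp2 and Prm2 at the far right, while Hsd3b1 and Lhcgr lie near the line.

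The calls also followed transcript length. In the decile of shortest transcripts 242 of 1574 genes were higher and 1063 lower, with a median log2 of -1.84, and in the longest decile 785 of 1575 were higher and 598 lower, with a median of 0.23. With an offset for the trend on length, 7010 genes were higher and 6506 lower, so that 51.9% of calls were higher against 41.5%, and the median moved to 0.07. Results that turn over or lose their call under this offset are marked where they stand.

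Along the steroid pathway the line kept some steps and lost others. Of 20 tested genes of steroid hormone synthesis, 13 were lower (9 at least 2-fold) and 5 higher (2 at least 2-fold), and 6 were held, with a median log2 of -0.79 against -0.27 for all genes (9 lower, 7 higher and a median of -0.04 with the length offset). Neighbouring copies of one enzyme parted. Hsd3b1 (chromosome 3, 98842356 to 98859794) and Hsd3b6 (chromosome 3, 98805504 to 98814443) both make 3-beta-hydroxysteroid dehydrogenase, which turns pregnenolone into progesterone, and Hsd3b6 is the form of adult Leydig cells. Hsd3b1 stood at 2519.5, 2370.1 and 2438 CPM in MLTC-1 and 2154 and 1995 CPM in primary cells (log2 0.24, SE 0.059, adjusted p = 0.00449). Its groups did not overlap, and the fold was held within 2-fold, though it was not called with upper quartile scaling (log2 0.10), with a filter at 10 CPM or in one fit of all 10 libraries, and stood at -1.001 in the other 5 libraries. Hsd3b6 stood at 0.984, 1.61 and 2.55 CPM in MLTC-1 and 3259.7 and 3070.1 CPM in primary cells (log2 -10.85, SE 0.19, adjusted p = 2.34e-09), so the primary cells had both forms and the line had little of one. The longest transcripts of the pair are 81.1% identical over 1784 aligned bases, and 38 of the 1753 stretches of 50 bases in Hsd3b6 occur in Hsd3b1, a share of 2.17%.

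Hsd17b3 (chromosome 13, 64058274 to 64089262), which makes testosterone from androstenedione in the last step of the pathway, was at 0, 0 and 0.0393 CPM in MLTC-1 and 1110.0 and 969 CPM in primary cells. Its only MLTC-1 count was a single read, and the primary level was 87883 times higher (95% exact Poisson interval 15772 to 3471260). The interval covers counting error only, not variation between samples, and rests on that single read. The 250 bases before a start in RefSeq (GRCm38.p6) are printed for these 3 genes, because the first was as high in the line and the others were near or at 0. They were searched on both strands for AGGTCA, the core of the element that Nr5a1 binds, and GATAA, the core of a GATA factor element, and matches are in capitals.
Hsd3b1, chr3:98859795-98860044, minus strand: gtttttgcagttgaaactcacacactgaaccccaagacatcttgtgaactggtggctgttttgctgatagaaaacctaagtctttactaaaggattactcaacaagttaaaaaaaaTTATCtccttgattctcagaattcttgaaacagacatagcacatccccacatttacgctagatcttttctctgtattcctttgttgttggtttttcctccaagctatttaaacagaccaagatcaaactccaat
Hsd3b6, chr3:98814444-98814693, minus strand: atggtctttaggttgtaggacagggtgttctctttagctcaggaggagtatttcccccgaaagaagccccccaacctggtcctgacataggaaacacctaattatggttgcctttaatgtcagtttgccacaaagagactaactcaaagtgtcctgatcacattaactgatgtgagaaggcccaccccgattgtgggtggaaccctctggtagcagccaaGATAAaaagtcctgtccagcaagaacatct
Hsd17b3, chr13:64089202-64089451, minus strand: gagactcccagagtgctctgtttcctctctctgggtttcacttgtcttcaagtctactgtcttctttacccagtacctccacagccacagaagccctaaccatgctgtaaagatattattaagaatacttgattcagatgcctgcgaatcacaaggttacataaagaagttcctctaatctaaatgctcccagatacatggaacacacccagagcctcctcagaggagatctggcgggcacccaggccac
GATAA occurs 1 time in the Hsd3b1 window, on the reverse strand as TTATC and starting 134 bases before the start, and 1 time in that of Hsd3b6, 30 bases before it. The Hsd17b3 window holds neither motif. Its lower end, 64089202, lies inside the gene bounds given above, so this window precedes a start other than the outermost one. Over 32851 windows of the same length in the table, 22.6% hold GATAA and 14% hold AGGTCA.

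The other steps were less far apart. Star, which brings cholesterol to the inner mitochondrial membrane, stood at 443, 456 and 457 CPM in MLTC-1 and 2607 and 2070.3 CPM in primary cells (log2 -2.37, SE 0.090, adjusted p = 4.3e-08). Cyp17a1, whose lyase step leads to androgens, stood at 875, 883 and 811 CPM in MLTC-1 and 6708 and 6509.7 CPM in primary cells (log2 -2.95, SE 0.059, adjusted p = 9e-10) and took more counts than any other gene in the primary cells. Both were lower in every MLTC-1 library than in either primary library. Cyp11a1, which cleaves the cholesterol side chain, was held at 3478, 3279 and 3401 CPM in MLTC-1 and 4047 and 3827 CPM in primary cells (log2 -0.22, SE 0.055, adjusted p = 0.00497), and it was not called with the length offset nor in one fit of all 10 libraries. Of the electron carriers of these enzymes, ferredoxin Fdx1 was lower (log2 -1.25), ferredoxin reductase Fdxr was held (log2 -0.62, not called with the length offset), and the P450 reductase Por was higher but held (log2 0.46). Cytochrome b5, Cyb5a, which aids the lyase step, was at a log2 of -0.28, called lower, but not without primary replicate 1 nor in one fit of all 10 libraries, and at 0.94 with the length offset. Srd5a1, the 5-alpha reductase that makes dihydrotestosterone, was higher (229, 238 and 227 CPM in MLTC-1 and 112 and 139 CPM in primary cells), and Akr1c14, which reduces it further, was lower (log2 -1.77, but -0.92 and not called in the other 5 libraries). The line also had more Hsd17b7 (log2 1.40), an enzyme of both steroid and cholesterol synthesis. The glucocorticoid-inactivating Hsd11b2 was at 3.89, 4.32 and 4.24 CPM against 0.0844 and 0.289.

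**Figure D2:**
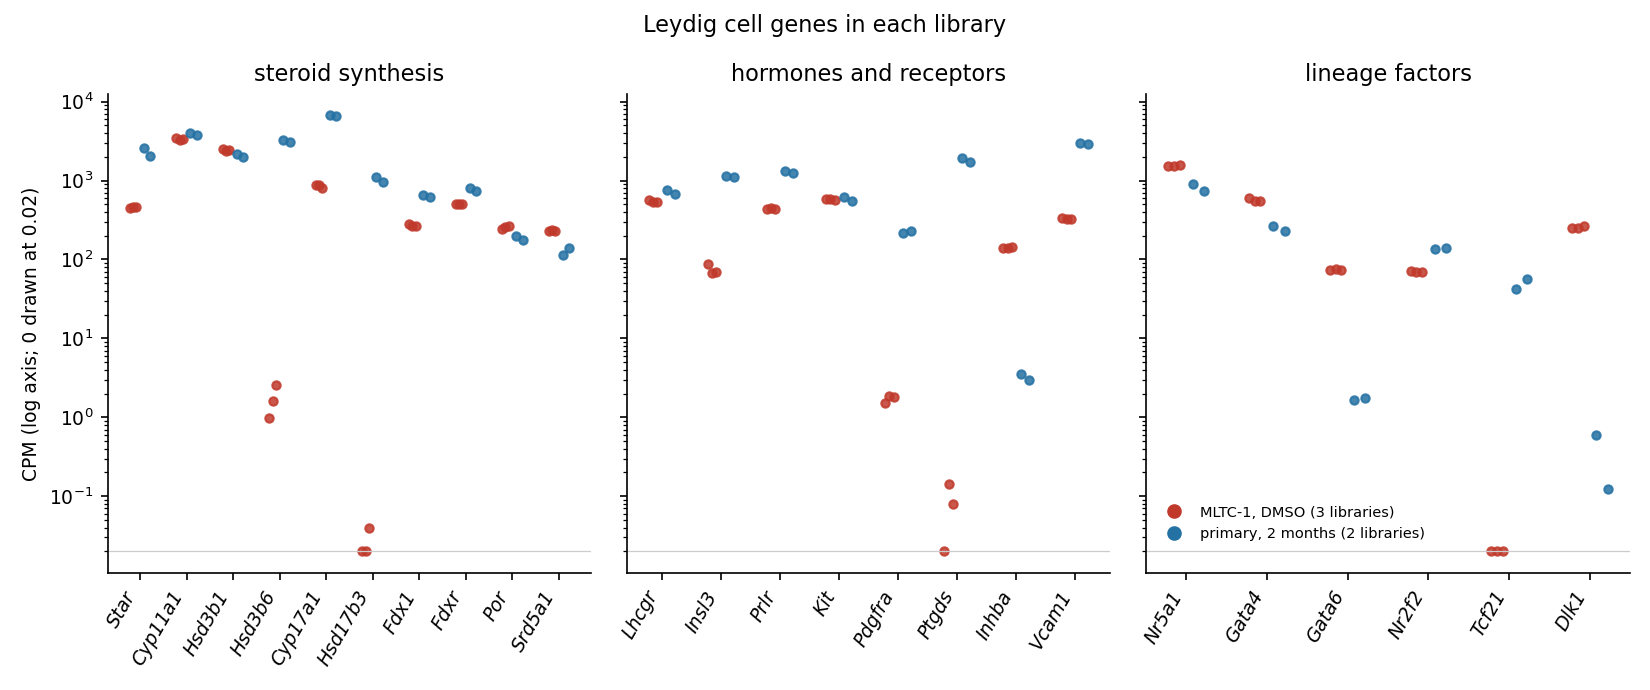
CPM on a log axis for genes of steroid synthesis, Leydig hormones and receptors, and lineage factors; each point is a library, red for MLTC-1 with DMSO and blue for primary cells, and 0 is drawn at 0.02. Cyp11a1, Hsd3b1, Lhcgr and Kit lie within 2-fold between groups, while Hsd3b6, Hsd17b3, Ptgds and Tcf21 lie far lower in MLTC-1 and Gata6, Inhba and Dlk1 far higher.

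Several receptors of the Leydig cell were held, and several of its secreted products were far lower in the line. Of 26 tested hormones and receptors, 14 were lower and 8 higher, shares close to those of all genes, and 11 were held. The receptor of luteinising hormone, Lhcgr, stood at 561, 538 and 529.7 CPM in MLTC-1 and 769 and 676 CPM in primary cells (log2 -0.41, SE 0.067, adjusted p = 0.000344), lower in every MLTC-1 library but held. In the other 5 libraries its log2 fold change was 0.27. The stem cell factor receptor Kit (575, 585 and 569.7 CPM in MLTC-1 and 615 and 556 CPM in primary cells) was held and not called, with an adjusted p-value of 0.742. In the other 5 libraries its log2 fold change was 0.72, not called either. The growth factor receptor Fgfr2 was held as well (log2 -0.11, called lower without primary replicate 2), while Fgfr1 was switched off (0, 0.0863 and 0 CPM in MLTC-1 and 60.7 and 53.0 CPM in primary cells) and the prolactin receptor Prlr, which in Leydig cells supports luteinising hormone receptors, was lower (log2 -1.54, but -0.37 and not called in the other 5 libraries). The platelet-derived growth factor receptor Pdgfra, a receptor of Leydig progenitors and stroma, was at 1.52, 1.84 and 1.81 CPM in MLTC-1 and 215 and 231 CPM in primary cells (log2 -7.00).

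Among secreted factors, Insl3, the hormone of testis descent, stood at 88.4, 67.9 and 69.0 CPM in MLTC-1 and 1145 and 1114 CPM in primary cells (log2 -3.91, SE 0.11, adjusted p = 1.75e-08, and log2 -1.33 with the length offset). Insl3 lies within the bounds of Jak3 on chromosome 8, and reads of the pair cannot be told apart where the strand setting is unknown. Ptgds, a prostaglandin D synthase, was at 1939.9 and 1709 CPM in primary cells and at 0, 0.144 and 0.0786 CPM in MLTC-1, and no switched-off gene had more counts in primary cells. Igf1, insulin-like growth factor 1, was at 0 counts in the line and at 7.05 and 6.35 CPM in primary cells, at least 189-fold lower. The inhibin subunits parted. Inha, the alpha subunit, was lower (log2 -1.58, but -0.77 with the length offset), and the beta subunits that also form activin were higher, Inhba at 139, 140.0 and 143 CPM in MLTC-1 and 3.50 and 2.97 CPM in primary cells (log2 5.44, SE 0.096, adjusted p = 5.32e-10) and Inhbb at a log2 of 3.93. Angiotensinogen, Agt, was higher but held (4786, 4345 and 4502 CPM in MLTC-1 and 3225 and 3082 CPM in primary cells), and stood at a log2 of -2.19 in the other 5 libraries. The adhesion molecule Vcam1 stood at 338, 326 and 324 CPM in MLTC-1 and 3015 and 2872 CPM in primary cells (log2 -3.16), and stem cell factor Kitl was higher (log2 1.10).

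Genes of luteinising hormone and cyclic AMP signalling ran in both directions. Of 37 tested genes 19 were lower, 9 higher and 17 held, against 48.5%, 34.4% and 35.3% of all genes. The median log2 was -0.21. The stimulatory G protein gene Gnas (log2 -0.21, not called with the length offset nor in one fit of all 10 libraries), the kinase regulator Prkar1a (587, 587 and 568 CPM in MLTC-1 and 586 and 561 CPM in primary cells) and the catalytic subunit Prkaca (log2 0.75) were held. Of the cyclases that make cyclic AMP, Adcy9 was higher (234, 249 and 247 CPM in MLTC-1 and 102 and 99.0 CPM in primary cells) and Adcy6 was switched off (0.246, 0.0575 and 0.393 CPM in MLTC-1 and 64.6 and 57.7 CPM in primary cells). Also switched off were Rapgef3 (Epac), a cyclic AMP effector beside the kinase (0.246, 0.403 and 0.314 CPM in MLTC-1 and 33.6 and 34.4 CPM in primary cells), and Rgs2, which restrains G protein signals and was at 0 counts against 68.2 and 75.4 CPM. The phosphodiesterase Pde8b, which breaks cyclic AMP down, was higher (log2 0.95, but 0.06 and not called in the other 5 libraries).

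In the Hedgehog and PDGF list, 10 of 15 genes were lower and 4 higher. The receptor Ptch1 (log2 0.64, not called in one fit of all 10 libraries) and its response gene Gli1 (26.6, 31.5 and 31.7 CPM in MLTC-1 and 4.35 and 4.87 CPM in primary cells) were higher, as was the ligand Dhh (36.0, 39.1 and 35.7 CPM in MLTC-1 and 0.970 and 2.23 CPM in primary cells), which in the testis is made by Sertoli cells. Smo, which passes the signal on, was at 0.820, 0.518 and 0.629 CPM in MLTC-1 and 86.6 and 84.5 CPM in primary cells, and the co-receptor Boc was at 0 counts against 72.1 and 75.6 CPM. Ligand, receptor and response gene were thus higher, and the transducer was lower in every MLTC-1 library.

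Nr5a1 and both GATA factors were higher in the line than in primary cells and several factors of Leydig progenitors and stroma were off. Nr5a1, the master regulator of steroid-making cells, stood at 1528, 1529 and 1564 CPM in MLTC-1 and 897 and 747 CPM in primary cells (log2 0.91, SE 0.079, adjusted p = 5.12e-06), higher in every MLTC-1 library. Gata4 was higher too (601, 555 and 554 CPM in MLTC-1 and 267 and 230.3 CPM in primary cells, log2 1.20). Gata6 stood at 72.7, 76.6 and 73.3 CPM in MLTC-1 and 1.65 and 1.77 CPM in primary cells (log2 5.44), and in the other 5 libraries at a log2 of -0.10, not called. Of the small nuclear receptors that restrain Nr5a1, Nr0b2 was higher (log2 3.73) and Nr0b1 lower (log2 -3.07), at 5.04 and -2.47 with the length offset. The transcription factor Maf was higher (log2 1.17).

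Tcf21, a factor of Leydig progenitors, was at 0 counts in the line and 42.4 and 56.3 CPM in primary cells, at least 1395-fold lower. Lhx9 was at 0.164, 0 and 0 CPM in MLTC-1 and 16.1 and 13.9 CPM in primary cells, and the stromal factor Osr1 at a log2 of -6.00. The orphan nuclear receptor Nr2f1 was switched on (7.38, 6.36 and 7.11 CPM against 0 counts). Over the whole list of 24 lineage factors, 11 were higher and 12 lower, and 3 were held, so 23 of 24 factors were called, in both directions, against 82.8% of all genes. Of genes typical of fetal Leydig and adrenal cells, the Notch-like ligand Dlk1, an imprinted gene, was at 247, 253 and 265 CPM in MLTC-1 and 0.591 and 0.124 CPM in primary cells. Its log2 fold change was 9.47, and 10.97 or 8.74 without primary replicate 1 or 2, which hold few of its reads. The oestrogen sulfotransferase Sult1e1 was lower in the line, at 0.656, 0.316 and 0.471 CPM in MLTC-1 and 294 and 249 CPM in primary cells (log2 -9.19, or -8.07 with the length offset). Primary cells at 24 months held Sult1e1 at 1329 and 1573 CPM, so it was not confined to fetal cells here.

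Genes of cholesterol handling ran in both directions. Of 32 genes of uptake, storage and transport, 17 were lower and 12 higher, and 11 were held, all close to the shares of all genes. Scarb1, the receptor that takes up cholesterol esters from HDL, stood at 386, 381 and 389.5 CPM in MLTC-1 and 449 and 428 CPM in primary cells, called lower (log2 -0.19), but not without MLTC-1 replicate 2, in one fit of all 10 libraries or in the other 5 libraries, and at 0.07, not called, with the length offset. The outer membrane protein Tspo (319.9, 286 and 295 CPM in MLTC-1 and 109.6 and 93.2 CPM in primary cells) and the carrier Stard4 (log2 1.12) were higher. Ces1d, a lipase and carboxylesterase, fell away in the line (5.20, 3.80 and 4.64 CPM in MLTC-1 and 854 and 799 CPM in primary cells, log2 -7.52), and the lipoprotein Apoe (log2 -1.87, but -0.98 with the length offset) and the droplet protein Plin1 (log2 -1.24) were lower. In cholesterol synthesis 17 of 27 genes were higher and 10 lower (5 lower without MLTC-1 replicate 3, 6 without replicate 2 and 3 with the length offset), and 15 were held. The regulator Srebf2 (667, 692 and 720.2 CPM in MLTC-1 and 189.6 and 200.1 CPM in primary cells) was higher and the sterol enzyme Nsdhl was lower (log2 -1.08). Hmgcs1, the target of hymeglusin, stood at 732, 698 and 704 CPM in MLTC-1 and 797 and 817 CPM in primary cells (log2 -0.18, not called without MLTC-1 replicate 2 or 3, with the length offset or in one fit of all 10 libraries).

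Fatty acid synthesis leaned higher, with 15 of 24 genes higher and 7 lower and a median log2 of 0.61. Fatty acid synthase Fasn stood at 1660.2, 1851 and 1908 CPM in MLTC-1 and 319 and 298 CPM in primary cells (log2 2.55, SE 0.079, adjusted p = 9.25e-09), and the citrate lyase Acly (log2 0.64) and desaturase Scd2 (log2 0.57) were higher but held. The desaturases of polyunsaturated fats were lower, Fads2 at 626, 653 and 651 CPM in MLTC-1 and 3183 and 2951 CPM in primary cells and Fads1 at a log2 of -1.99. Malic enzyme Me1, a source of NADPH, was lower (log2 -1.31). Of 37 genes of fatty acid oxidation 24 were lower, 8 higher and 22 held, with a median log2 of -0.29 near that of all genes, and with the length offset 14 were lower and 16 higher, so no direction is given for the list. The fatty acid carriers Cd36 (log2 -3.43) and Fabp3 (log2 -2.09, but -0.08 and not called with the length offset) and the mitochondrial gate Cpt1a (log2 -1.37) were lower, while Hadha, of the oxidation cycle itself, was held (log2 -0.29, not called in one fit of all 10 libraries).

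Ketone bodies are a fuel made from acetyl-CoA and burned through Oxct1, and ketogenesis is the subject of the series. Of 13 tested genes 6 were higher and 6 lower. Acat1, a thiolase of both synthesis and use, was held (537, 487 and 489 CPM in MLTC-1 and 492 and 487 CPM in primary cells). Oxct1, the first enzyme of ketone body use, was higher (421, 414 and 403 CPM in MLTC-1 and 139.8 and 137 CPM in primary cells, log2 1.58), as were Bdh1 (log2 1.08) and the monocarboxylate carriers Slc16a1 (log2 1.03) and Slc16a3 (log2 1.90). In the other 5 libraries Oxct1 stood at a log2 of 2.203 and Bdh1 at -0.41. Oxct2a (0.0820, 0.259 and 0.0786 CPM in MLTC-1 and 18.1 and 33.4 CPM in primary cells), Oxct2b (25.4 and 37.9 CPM against 0) and Slc16a7 (53.2 and 100.4 CPM against 0) were switched off. The Oxct2 genes are known from spermatids, whose markers were lower in the line too, and the part of those cells was not tested.

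Genes of glycolysis leaned higher. Of 28 genes 18 were higher, 16 at least 2-fold, and 10 lower, with a median log2 of 1.26. The enolase Eno1 stood at 6200.5, 5994 and 6165 CPM in MLTC-1 and 315 and 345 CPM in primary cells (log2 4.21, SE 0.070, adjusted p = 4.46e-10) and took more counts than any other gene in the line. Reads of Eno1 and its near copy Eno1b may be split between them. The phosphofructokinase Pfkl (625, 662 and 649 CPM in MLTC-1 and 46.0 and 42.5 CPM in primary cells), hexokinase Hk2 (238, 258 and 264 CPM in MLTC-1 and 14.4 and 14.8 CPM in primary cells) and Pgk1 (log2 2.89, or 3.48 with the length offset) were higher in every MLTC-1 library. Lower were the lactate dehydrogenase Ldhb (log2 -2.26, but -1.23 with the length offset) and Pdk4, which shuts pyruvate out of the citrate cycle (log2 -2.41). The glucose carrier Slc2a3 was at 0 counts in the line and 164 and 319 CPM in primary cells. The germ cell lactate dehydrogenase Ldhc, at 0, 0.0288 and 0 CPM in the line, was likewise higher in the second primary library (420.4 and 669.8 CPM).

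Targets of the hypoxia response outside glycolysis were higher in 19 of 21 cases and lower in 1. The growth factor Vegfa stood at 517, 545 and 546 CPM in MLTC-1 and 85.1 and 86.6 CPM in primary cells (log2 2.64, SE 0.062, adjusted p = 1.99e-09), the hypoxia factor Epas1 at 102, 110.4 and 115 CPM in MLTC-1 and 1.86 and 2.52 CPM in primary cells, and the adenylate kinase Ak4 at 238, 230.4 and 223 CPM in MLTC-1 and 6.29 and 4.62 CPM in primary cells. Oxygen during culture is not stated in the labels. In the citrate cycle 17 of 28 genes were higher and 11 lower (7 lower with the length offset), and 15 were held. The pyruvate carboxylase Pcx was higher (1197, 1249 and 1265 CPM in MLTC-1 and 269.6 and 253 CPM in primary cells), as was citrate synthase Cs (log2 1.09), and Ogdhl, a form of the oxoglutarate dehydrogenase, was lower (log2 -3.09). Nuclear genes of oxidative phosphorylation (28 of 46 lower, 15 higher, 32 held) and cytosolic ribosomal proteins (29 of 55 lower, 12 higher, 44 held) have short transcripts. With the length offset they stood at 5 lower and 36 higher, and at 3 lower and 48 higher, so no direction is given for them.

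Detoxifying enzymes ran in both directions. In the list of xenobiotic, aldehyde and retinoid metabolism 29 of 43 genes were lower, 25 at least 2-fold, and 12 higher, with a median log2 of -2.12. The glucuronosyltransferase Ugt1a7c was off (0.0820, 0 and 0.118 CPM in MLTC-1 and 221 and 197 CPM in primary cells), while Aldh1a1, an abundant aldehyde dehydrogenase, was lower but held (3131, 2961 and 3022 CPM in MLTC-1 and 5380.2 and 5300.1 CPM in primary cells). Against the list, 3 genes of retinoid metabolism were higher. Adh7, an alcohol dehydrogenase that acts on retinol, stood at 1589, 1507 and 1573 CPM in MLTC-1 and 1.77 and 1.94 CPM in primary cells (log2 9.71, SE 0.098, adjusted p = 8.1e-11), Aldh1a2, which makes retinoic acid, at 1354, 1331 and 1365 CPM in MLTC-1 and 199 and 184 CPM in primary cells, and Cyp26b1, which breaks it down, at 206, 227 and 239 CPM in MLTC-1 and 1.48 and 2.35 CPM in primary cells. Of 45 glutathione and antioxidant genes 22 were lower and 16 higher, close to the shares of all genes (13 and 29 with the length offset). The glutathione transferase Gsta3 (log2 -5.90) was lower and Gpx3 (0.328, 0.316 and 0.432 CPM in MLTC-1 and 117 and 93.2 CPM in primary cells) and Gstk1 (83.6 and 74.2 CPM against 0) were switched off, while glutathione reductase Gsr (log2 1.83) and thioredoxin reductase Txnrd1 (log2 1.65) were higher and Sod1 was held (log2 -0.54).

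**Figure D3:**
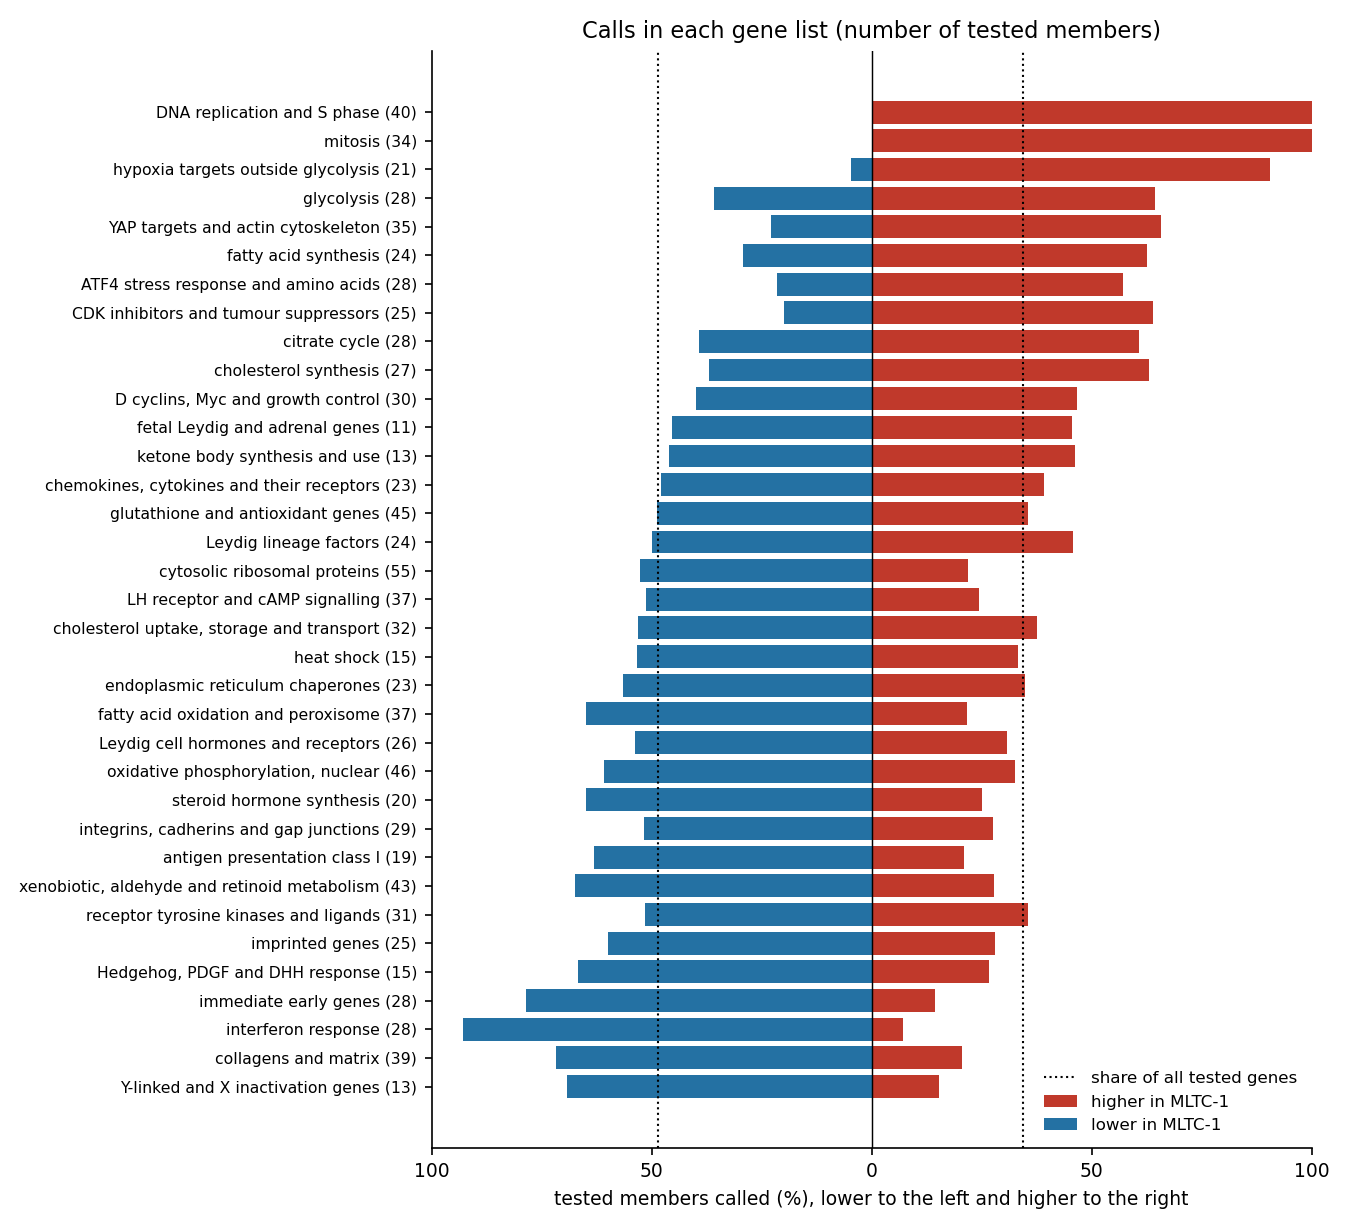
Percent of tested members of each gene list called lower (blue, to the left) and higher (red, to the right) in MLTC-1, ordered by median log2 fold change, with the number of tested members in brackets; dotted lines mark the shares over all tested genes, 48.5% lower and 34.4% higher. Replication, mitosis and hypoxia targets lie farthest to the higher side, and interferon response, immediate early genes and matrix far to the lower side.

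Genes of the cell cycle were higher throughout. All 34 tested genes of mitosis and all 40 of DNA replication were higher, against 34.4% of all genes, with median log2 fold changes of 2.65 and 3.11, and all were called in each alternative run except 2 genes in either list when a change of at least 2-fold was asked of the test. Ccna2, the cyclin of S phase and mitosis, stood at 131, 128 and 116 CPM in MLTC-1 and 3.25 and 3.30 CPM in primary cells (log2 5.25, SE 0.11, adjusted p = 9.72e-10), the kinase Cdk1 at 165, 159 and 162 CPM in MLTC-1 and 7.05 and 9.45 CPM in primary cells, and the helicase subunits Mcm3 and Mcm6 at log2 fold changes of 5.86 and 4.90. Of the D cyclins that open the cycle, Ccnd2 was at 0.533, 0.173 and 0.157 CPM in MLTC-1 and 93.5 and 78.9 CPM in primary cells and Ccnd3 was lower but held (log2 -0.82), while their partner Cdk4 was higher (368, 348 and 333 CPM in MLTC-1 and 107 and 96.7 CPM in primary cells).

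Many inhibitors of the cycle were higher as well. Of 25 CDK inhibitors and tumour suppressors 16 were higher, 5 lower and 11 held. Cdkn2a (chromosome 4, 89274473 to 89294619), which encodes the inhibitors p16 and p19ARF, stood at 299, 281 and 290.4 CPM in MLTC-1 and 0.0844 and 0.371 CPM in primary cells, and no switched-on gene had more CPM in the line. Its log2 fold change was 10.28, and 9.60 or 11.67 without primary replicate 1 or 2 and 12.08 with the length offset. Its neighbour Cdkn2b was higher (31.4, 33.3 and 30.2 CPM in MLTC-1 and 1.60 and 1.90 CPM in primary cells), as was Cdkn1b (log2 1.27), and Cdkn1c, which is imprinted, was lower (log2 -2.51). Cdkn1a was held and not called (18.9, 20.6 and 17.2 CPM in MLTC-1 and 19.1 and 22.6 CPM in primary cells), and stood at a log2 of 0.40, called higher, with the length offset. In the other 5 libraries Cdkn1a stood at a log2 of -2.46, called lower. The tumour suppressors Trp53 (log2 0.45) and Rb1 (log2 0.53) were higher but held, and neither was called in one fit of all 10 libraries, and of the relatives of Rb1, Rbl1 was higher (log2 2.74) and Rbl2 lower (log2 -0.97). Among growth factors and receptors 16 of 31 genes were lower and 11 higher, close to the shares of all genes (48.5% and 34.4%). Met, the receptor of hepatocyte growth factor, stood at 57.4, 65.8 and 62.5 CPM in MLTC-1 and 10.4 and 10.1 CPM in primary cells. Gas6, a ligand of the TAM receptors, stood at 4851, 4732 and 4983 CPM in MLTC-1 and 1012 and 900.3 CPM in primary cells.

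Imprinted genes, expressed from 1 parental copy, leaned lower, with a median log2 of -2.46 against -0.27 for all genes. Of 25 tested, 15 were lower and 7 higher, against 48.5% and 34.4% of all genes. Of the lower, 14 were at least 2-fold lower, against 35.7% of all genes, and 6 of the list were switched off. Grb10, an adaptor that restrains insulin signals, was at 0 counts against 115 and 113 CPM, at least 3213-fold lower. Peg3 (20.2 and 18.97 CPM), Sgce (50.9 and 46.8 CPM), Ndn (18.4 and 16.3 CPM) and the matrix proteoglycan Dcn (188 and 196 CPM) were likewise at 0 counts in MLTC-1. Dcn is also a defining fibroblast marker here. Zdbf2 was at 0.0820, 0.0575 and 0 CPM in MLTC-1 and 35.9 and 39.8 CPM in primary cells. Igf2, the growth factor, was lower (log2 -3.14), and Igf2r, which removes it, was higher (376, 414 and 446 CPM in MLTC-1 and 44.0 and 43.8 CPM in primary cells, log2 3.23). At the Dlk1 locus, the protein genes Dlk1 and Rtl1 (34.96, 39.0 and 40.6 CPM in MLTC-1 and 0.759 and 0.660 CPM in primary cells) were under 1 CPM in primary cells and higher in the line, while the non-coding Meg3 was held (575, 637 and 665 CPM in MLTC-1 and 680.4 and 629 CPM in primary cells) and Rian was higher (log2 1.03).

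Genes of the Y chromosome were lower in the line, all 10 of those tested. Ddx3y (168 and 155 CPM in primary cells), Eif2s3y (117 and 100.4 CPM), Kdm5d (64.2 and 61.4 CPM) and Uty (33.9 and 34.3 CPM), which male cells express widely, were at 0 counts in all 3 MLTC-1 libraries, for Ddx3y at least 4550.4-fold lower.

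Genes that respond within minutes to handling or stimulation were high in the primary cells. Of 28 immediate early genes 22 were lower in MLTC-1, 20 at least 2-fold, and 4 higher, with a median log2 of -3.43. Fos stood at 1.48, 1.87 and 1.61 CPM in MLTC-1 and 1004 and 1343 CPM in primary cells (log2 -9.45, SE 0.17, adjusted p = 2.32e-09), Egr1 at 4.47, 5.12 and 4.91 CPM in MLTC-1 and 839 and 1049.7 CPM in primary cells, and Btg2 at 10.8, 8.86 and 7.97 CPM in MLTC-1 and 358 and 448 CPM in primary cells, while Fosl2 was higher (248, 262 and 275 CPM in MLTC-1 and 21.9 and 24.0 CPM in primary cells), as was Nr4a1, a target of luteinising hormone signals (log2 1.11). How long either kind of cell was handled before lysis is not stated in the labels. By median log2 fold change, other lists of this kind lay nearer to all genes (-0.27). The medians were -0.24 for heat shock, -0.27 for endoplasmic reticulum chaperones, 0.60 for the ATF4 response and 0.83 for YAP targets and actin genes. The ATF4 and YAP lists leaned higher. Of 15 heat shock genes 8 were lower and 5 higher (6 and 8 with the length offset), with the inducible chaperone Hspa1b higher at 169.5, 174 and 176 CPM in MLTC-1 and 30.0 and 30.2 CPM in primary cells. Of 28 genes of the ATF4 response 16 were higher and 6 lower, with the serine synthesis enzyme Phgdh at 265, 258 and 255 CPM in MLTC-1 and 19.8 and 20.8 CPM in primary cells and the amino acid carrier Slc3a2 lower (log2 -0.92). Of 23 endoplasmic reticulum chaperones 13 were lower, 8 higher and 16 held (7 lower and 10 higher with the length offset), with Calr at a log2 of 0.96 and Dnajb9 at -3.22. Of 35 YAP targets and actin genes 23 were higher and 8 lower, with vinculin Vcl at 119.8, 128 and 122 CPM in MLTC-1 and 7.17 and 7.59 CPM in primary cells and filamin Flna at a log2 of 2.45, and Anxa1 switched off (0, 0.259 and 0.0786 CPM in MLTC-1 and 49.4 and 58.1 CPM in primary cells).

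Most matrix genes were lower in the line. Of 39 genes of collagens and matrix 28 were lower, 27 at least 2-fold, and 12 were switched off, with a median log2 of -5.58, or -5.19 with genes at 0 set at their lower bound. Timp2, an inhibitor of matrix proteases, stood at 0, 0 and 0.0393 CPM in MLTC-1 and 1579 and 1414 CPM in primary cells, Col1a2 at 0.0410, 0 and 0 CPM in MLTC-1 and 259 and 239 CPM in primary cells, and Col4a1, of basement membranes, at 0.0820, 0 and 0.0786 CPM in MLTC-1 and 197 and 201 CPM in primary cells. Going against the list, Col6a1 was higher (1416, 1504 and 1585 CPM in MLTC-1 and 147 and 145 CPM in primary cells, log2 3.37), as was the laminin chain Lamc1 (log2 1.60). Of 29 adhesion genes 15 were lower and 8 higher, against 48.5% and 34.4% of all genes. The hyaluronan receptor Cd44 stood at 75.9, 75.3 and 68.1 CPM in MLTC-1 and 0.675 and 0.990 CPM in primary cells, and the integrin Itga3 at 0 counts against 40.8 and 35.2 CPM.

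Interferon response genes were lower in 26 of 28 cases, 24 at least 2-fold, with a median log2 of -3.51, and in the other 5 libraries in 23. Ifi27 stood at 100.5, 98.9 and 94.8 CPM in MLTC-1 and 359.7 and 379 CPM in primary cells (log2 -1.91, but -0.28 with the length offset), Bst2, which tethers budding viruses, at 27.0, 23.8 and 27.7 CPM in MLTC-1 and 132 and 114 CPM in primary cells (log2 -2.23, not called with the length offset) and Mx2 at 0.328, 0.288 and 0.275 CPM in MLTC-1 and 16.5 and 15.6 CPM in primary cells. Of 19 class I antigen presentation genes 12 were lower and 4 higher (9 and 8 with the length offset). The class I heavy chain H2-K1 stood at 8.24, 8.80 and 8.52 CPM in MLTC-1 and 403 and 372 CPM in primary cells (log2 -5.50, SE 0.072, adjusted p = 1.62e-10), though class I genes are near copies that vary between mouse strains, so its level depends on read assignment. Its light chain B2m was lower (138, 124 and 123 CPM in MLTC-1 and 459.9 and 427 CPM in primary cells, log2 -1.79), but at 0.13, not called, with the length offset, and the peptide carrier Tap1 was higher (49.6, 45.9 and 47.5 CPM in MLTC-1 and 21.3 and 14.4 CPM in primary cells). The chemokine Cxcl1 was at 0.246, 0 and 0 CPM in MLTC-1 and 125 and 172 CPM in primary cells.

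Markers of other testis cells moved with the groups too. All 26 tested spermatid markers were lower in MLTC-1 and 19 were switched off, and their summed level was 90.2 to 102 CPM in the line and 3604 and 5237 CPM in primary cells. Of the 8 defining spermatid markers Prm1, Prm2, Tnp2, Akap4 and Smcp were at 0 counts in MLTC-1, and Prm2, a protamine of sperm chromatin, was at 461 and 629 CPM in primary cells. Spermatogonia and spermatocyte markers were lower in 19 of 20 cases, with sums of 88.3 to 92.3 against 1147 and 1857 CPM, and the spermatogonial factor Zbtb16 was at 0.0820, 0 and 0.157 CPM in MLTC-1 and 46.6 and 60.4 CPM in primary cells. Both sums were higher in the second primary library.

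Macrophage markers were lower in 17 of 18 cases, with sums of 1.41 to 2.17 against 65.0 and 81.2 CPM. Of the 8 defining ones Adgre1, C1qa, C1qb, C1qc and Cd74 were at 0 counts in the line. Fibroblast and stromal markers were lower in 12 of 13, with sums of 142 to 157 against 1089.5 and 1130.4 CPM, and Dcn was at 0 counts in the line. Lymphocyte markers (3 tested) summed to 3.73 to 4.02 against 6.67 and 4.95 CPM and red blood cell markers (1 tested) to 1.61 to 1.92 against 1.86 and 2.35 CPM. No counts were recorded for the haemoglobin genes Hbb-bs, Hbb-bt, Hba-a1 and Hba-a2, each either at 0 in these libraries or missing from the count table. The part of these cells in the genes that were lower in MLTC-1 was not tested.

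Markers of other classes ran in both directions. Sertoli cell markers were lower in 9 of 13 cases and higher in 3, and summed to 3593 to 3732 CPM in MLTC-1 and 4906 and 4438 CPM in primary cells. Most of this was clusterin, Clu (2229.8, 2172 and 2199 CPM in MLTC-1 and 3602 and 3242 CPM in primary cells), which was held and not called with the length offset. Transferrin, Trf, was switched off (0.0820, 0.0575 and 0 CPM in MLTC-1 and 189 and 215 CPM in primary cells), and Sox9 was under 1 CPM in all 5 libraries. Endothelial markers summed to more in the line, 140.3 to 143 against 41.2 and 45.2 CPM, with 4 of 13 higher and 6 lower (3 lower without primary replicate 2). Cdh5, the cadherin of vessels, was among the higher ones (74.8, 78.9 and 80.1 CPM in MLTC-1 and 16.3 and 15.9 CPM in primary cells), while the defining markers Kdr, Tie1 and Emcn were at 0 counts in MLTC-1. Peritubular myoid markers summed to 159 to 166 against 228 and 245 CPM.

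**Figure D4:**
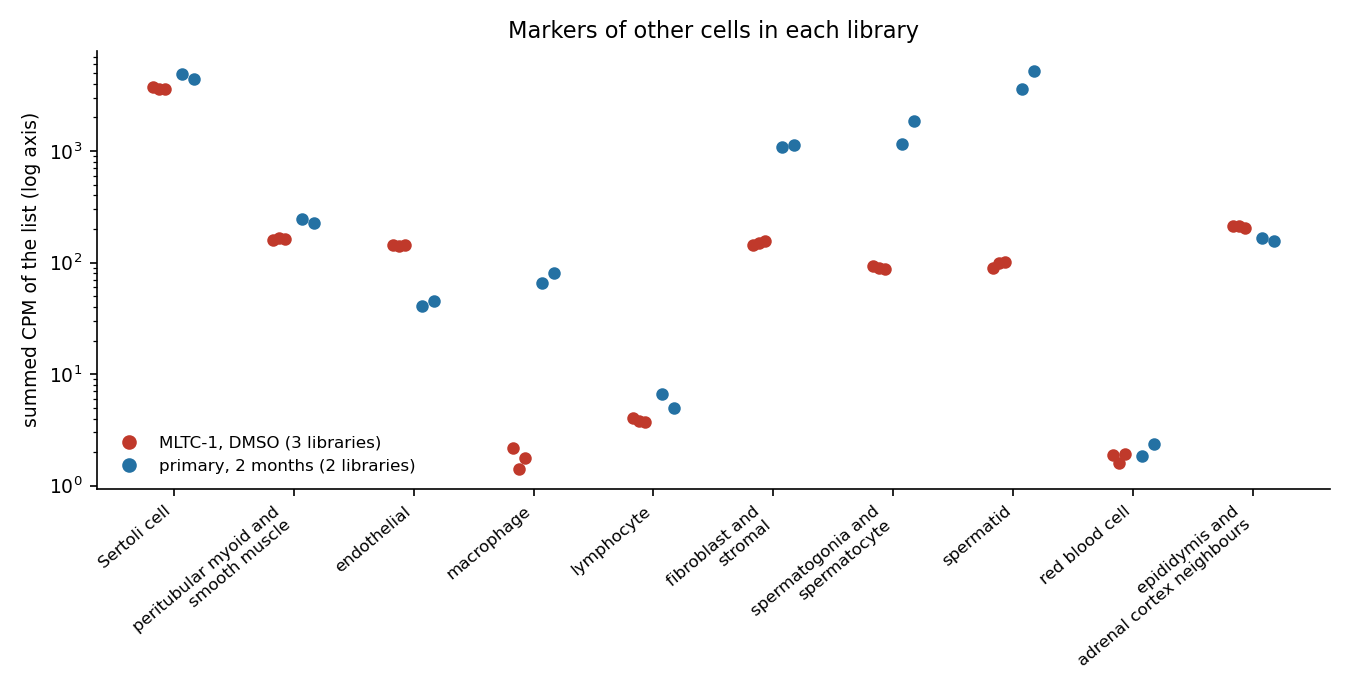
Summed CPM (log axis) of the marker lists of other cells in each library, red for MLTC-1 with DMSO and blue for primary cells. Spermatid, spermatocyte, fibroblast and macrophage sums are higher in both primary libraries than in any MLTC-1 library, and the endothelial sum is higher in MLTC-1.

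Of genes above a mean log2 CPM of 2, the largest folds upward were those of the transcription factors Sp9 (76.2, 69.1 and 73.7 CPM against 0 counts, at least 1159-fold higher) and Gsx2 (40.7, 38.8 and 38.0 CPM against 0), both known from the developing brain, and the sulfotransferase Sult2a1 (67.7, 50.8 and 55.3 CPM against 0). The secreted Wnt antagonist Sfrp4 stood at 966, 948 and 948 CPM in MLTC-1 and 0.928 and 0.701 CPM in primary cells (log2 10.19, SE 0.11, adjusted p = 8.82e-11). Of the 79 switched-on genes that are not clones or pseudogenes, those next in CPM after Cdkn2a were Ulbp1, a ligand of natural killer cells (106, 105 and 107 CPM), and the desmosomal cadherin Dsc3 (81.4, 72.7 and 81.4 CPM). Downward, the largest folds were those of Glb1l2, a galactosidase-like enzyme (645 and 580.1 CPM against 0 counts, at least 17267-fold lower), the protamine Prm2, Timp2, Tnp2, Prm1 and Rcn1, a calcium-binding protein of the endoplasmic reticulum (341 and 302 CPM against 0). Sparcl1, a matrix protein, was off as well (0.246, 0.115 and 0.157 CPM in MLTC-1 and 1207 and 1108 CPM in primary cells).

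By chromosome, the autosomes with the lowest and the highest median were 19 and 15. The median log2 fold change was -0.85 over 511 tested genes of chromosome 19, of which 330 were lower and 97 higher, and 0.19 over 639 genes of chromosome 15, of which 258 were lower and 297 higher, against -0.27 over all. Among 8192 genes at 10 CPM or more in all 5 libraries, the medians were -0.44 (269 genes) and 0.59 (341 genes), against 0.19 over all of them, and 72.9% of the chromosome 19 genes were below 0 against 40.8%. The choice of genes at 10 CPM in every library leaves out genes lost in 1 group. Copy number was not measured, and these medians are a description.

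**Figure D5:**
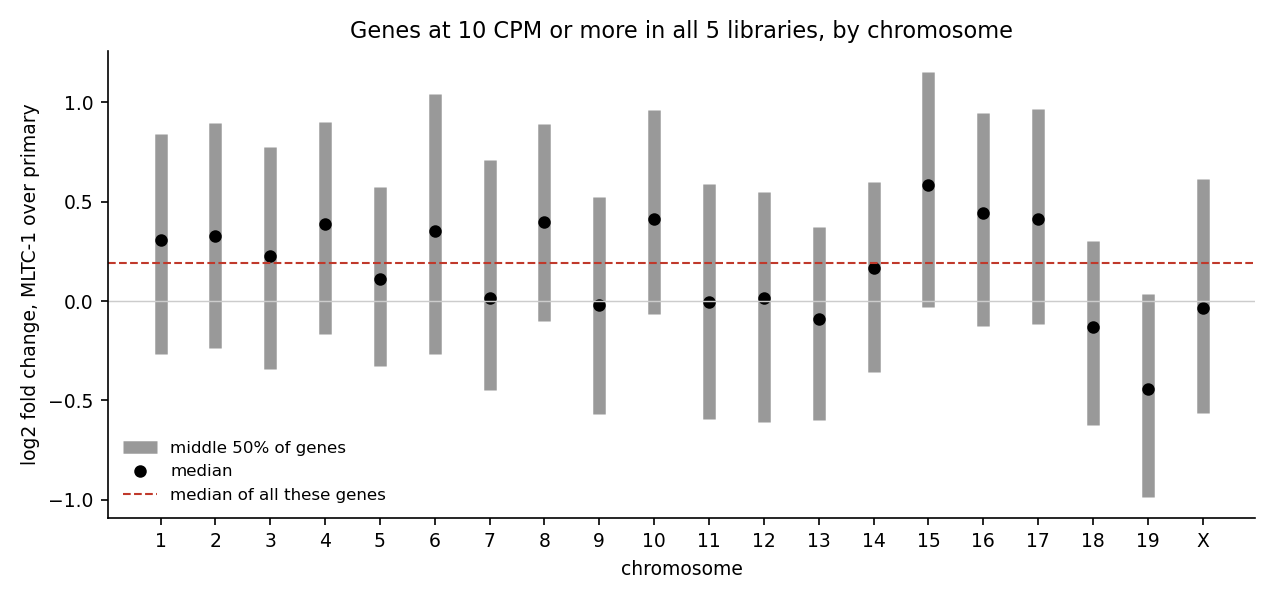
Median log2 fold change (points) and middle 50% (bars) of genes at 10 CPM or more in all 5 libraries, by chromosome, with the median over all these genes as a dashed line at 0.19. Chromosome 19 lies lowest at -0.44 and chromosome 15 highest at 0.59.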

How the data were processed

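Whole counts per gene were deposited by the authors as one table of 10 libraries. Per the submitters' processing notes, the tools were featureCounts 2.0.6, HISAT2 2.2.1, fastp 0.23.4 and FastQC 0.12.1, with no roles given, and the build was mm10. Annotation and strand setting are not given in the sources consulted.

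Columns were matched to samples by the library names in the labels. Counts of the 3 MLTC-1 DMSO and 2 primary 2-month libraries were filtered (edgeR filterByExpr, minimum count 10, minimum total 15), scaled by TMM and tested with the quasi-likelihood test of edgeR 4.0.16 (R 4.3.3) with robust dispersions and Benjamini-Hochberg adjustment over 16092 genes. The standard error is the log2 fold change over the root of the F statistic. CPM is a count over the library total. A fold against 0 counts is a bound at 3 counts over the group. Totals of 23668785 to 34787330 set the precision, and no value of a single gene reaches p under 0.05 by permutation at 3 against 2, where 0.1 is the smallest exact p.

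The members and the 45 gene lists were chosen with earlier results of these data known. Named genes are the 15 largest called changes each way above a mean log2 CPM of 2 with groups that do not overlap, the 10 switched-off and 10 switched-on genes with the highest level, all members of the short Leydig, ketone, cell cycle inhibitor, imprinted and Y-linked lists, and up to 4 per direction and 4 held genes of other lists, of which the text uses a part, and some members of these lists are not reported here. Lymphocyte, red blood cell, myoid and neighbouring tissue lists were included as checks. Of 4 tested genes in the last, epididymis and adrenal cortex, 1 was higher and 2 lower.

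Replicates of a group differed beyond counting noise (chi-square per degree of freedom 3.44 to 7.06 in MLTC-1 and 18.9 in primary cells), so none was merged. Promoter sequences and gene positions are from RefSeq (GRCm38.p6) and were matched by symbol. On simulated counts with 198 changed genes among the 15610 tested, the test called 79.6% of genes raised by 1 on the log2 scale, 64% of those lowered by 1, and 0.0454% of unchanged genes. There, about as many genes were raised as lowered, and both groups had a common dispersion trend. In the data 82.8% of genes were called, more of them lower, with coefficients of variation of 0.0506 and 0.162. The simulated rates therefore do not describe this comparison. Alternatives were other scalings and filters, DESeq2 1.42.0, limma 3.58.1, offsets for transcript length and GC content, other thresholds, each library left out, a fit of all 10 libraries, and the other 5 libraries alone. Figures were drawn with Python 3.11.15 and matplotlib 3.10.9.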

Additional observations from a re-analysis of the deposited data

How the results depend on the processing

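Most counts of called genes moved by less than 1.5 times. When the test asked for a log2 change of 1, 2309 genes were higher. With a filter at 10 CPM, which tests fewer genes, 4980 were lower and 2772 at least 2-fold lower. In the other 5 libraries 4551 genes were at least 2-fold higher and 2073 held. Switched-on genes numbered 37 with a floor of 0.2 CPM, 147 with a floor of 1 CPM and 56 with a level of 10 CPM. Leaving out each library in turn gave 5095 to 5637 genes higher, 7492 to 7875 lower, 2668 to 2816 at least 2-fold higher, 5379 to 5828 at least 2-fold lower, 5228 to 5726 held, 1391 to 1587 switched off and 92 to 121 switched on. Upper quartile scaling moved the median log2 fold change by -0.14, to 4895 higher and 8388 lower. Only numbers 1 and 2 are shared by the groups, and deviations of same-numbered libraries correlated at 0.007 and 0.0006. Deviations of 2 primary libraries from their mean mirror each other, so these values cannot decide on pairing. The numbers were not taken to pair the samples, as the labels give no origin of the replicates. With the replicate block 5305 genes were higher, 7501 lower and 5470 held.

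Signs of single genes turned over with a call in at least one of the fits in the other 5 libraries, which differ in treatment and age, for Hsd3b1 (-1.001), Lhcgr (0.27), Fgfr2 (1.14), Inha (0.098), Agt (-2.19), Gata6 (-0.10), Tspo (-0.57), Hmgcs1 (0.042), Bdh1 (-0.41), Acat1 (-0.70), Cpt1a (0.51) and Meg3 (0.95), all as log2 fold changes. They turned over with the length offset, or that for length and GC, for Cyb5a (0.94, 0.97), Scarb1 (0.069, 0.14), Hmgcs1 (0.000195, 0.21), B2m (0.13, 0.51) and Cdkn1a (0.40 with length alone). Kit, not called in either, went from -0.022 to 0.72 in the other 5 libraries. Cdkn1a (-2.46) and Hoxc6 (0.79) gained a call there. Calls were lost there for 12 more genes, among them Akr1c14, Prlr, Prkaca, Pde8b, Rbl2, Hspa1b and Calr, and in one fit of all 10 libraries for 10 genes (Cyp11a1, Hsd3b1, Cyb5a, Gnas, Ptch1, Scarb1, Hmgcs1, Hadha, Trp53 and Rb1). The cause was not tested. Of 3566 values of single genes under an alternative, 3459 showed no lost, gained or reversed call, where a change of sign between values that were both not called was not counted. Depth limits genes near 0, whose fitted folds move with single reads. Levels are given for these genes, for some with the fitted fold beside them, and 2 primary libraries limit every error.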

Other observations

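The Hox genes, which give cells their place along the body, were named after their values were seen. The 7 genes of the HoxD cluster in the table were at 0 counts in all 3 MLTC-1 libraries and summed to 394 and 380.2 CPM in primary cells. Of the 6 tested all were lower and 5 were switched off, with Hoxd8 at 126 and 116 CPM, Hoxd9 at 109 and 109 CPM and Hoxd4 at 86.4 and 88.2 CPM in primary cells. HoxC ran the other way, with 6 of 9 tested genes higher and 1 lower, and sums of 160 to 173 CPM in MLTC-1 against 77.1 and 71.0 CPM. Hoxc10 stood at 59.3, 60.9 and 63.4 CPM in MLTC-1 and 6.62 and 5.28 CPM in primary cells, Hoxc13 at 21.2, 20.8 and 21.8 CPM against 0 and 0 CPM, and Hoxc6 at 30.1, 36.3 and 33.3 CPM in MLTC-1 and 29.4 and 28.8 CPM in primary cells. HoxA summed to 0 to 0.246 CPM against 10.3 and 16.1 CPM, and HoxB to 26.1 to 28.1 CPM against 19.4 and 19.9 CPM.

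Among 12054 genes with an expressed level in either group and a position, ordered along the chromosomes, 58 runs of at least 3 neighbours were switched off and 1 run was switched on. The run switched on held 3 HoxC genes (chromosome 15, 102921103 to 102957708), and one of the runs off held 7 neighbours of HoxD (chromosome 2, 74691924 to 74762896). Another run off held Tnp2, Prm3, Prm2 and Prm1 (chromosome 16, 10787936 to 10805839). Of the 1368 switched-off genes, 44 are in the marker lists of other cells, 32 of them in the germ cell lists. These lists are short and hold only a part of the genes of such cells. In them 19 of 26 spermatid markers and 13 of 24 spermatogonia and spermatocyte markers were switched off, against 1368 of 25239 genes in the table. The part of germ cells in the switched-off genes was not tested.

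The most abundant RNAs differed. Of the 20 genes with the highest mean CPM in each group, 6 were shared. Lcn2, which encodes the iron-siderophore carrier lipocalin 2 and was named after its values were seen, stood at 5.37, 5.75 and 5.03 CPM in MLTC-1 and 3904 and 3526 CPM in primary cells (log2 -9.42, or -8.49 with the length offset). Glul, glutamine synthetase, named in the same way, stood at 169.5, 172 and 174 CPM in MLTC-1 and 3312 and 2844 CPM in primary cells (log2 -4.16). CPM follows transcript length as well as abundance.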
